A study of Mus musculus with 32 samples.

Results

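Trpc1, Trpc4, Trpc5, Trpc6 and Trpc7 encode cation channels of the canonical transient receptor potential (TRPC) family. These 5 genes were taken by name from the 24062 genes of the count tables, a choice made with earlier results of these data known. All 5 passed the filter on low counts in every fit. RNA was sequenced from the cortex of S100a10 bacTRAP mice, Tg(S100a10-EGFP/Rpl10a)ES691Htz, a single founder line in which S100a10 regulatory elements drive an EGFP-tagged ribosomal protein L10a. The TRAP fraction is the RNA pulled down with tagged polysomes by antibodies to EGFP, and the input is RNA of whole cortex, from which hippocampi and striata had been removed. Both fractions were collected from 4 groups of adult males, with 4 libraries per group and fraction and 3 mice pooled per library. Sh + Flx anxious mice were single-housed after weaning, drank fluoxetine at 0.167 g/L for 21 days and were classed as anxious from their behavior. Sh + Flx mice had the same housing and treatment without that behavior, Sh mice were single-housed on vehicle, and Gh mice were group-housed on vehicle. The transgene was present in every group, and the labels name the cells layer 5a S100a10 neurons.

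TRPC channels are calcium-permeable, nonselective cation channels of 4 subunits that open downstream of receptors coupled to Gq and phospholipase C. Trpc4 and Trpc5 form one closely related branch, whereas Trpc6 and Trpc7 belong to the branch that diacylglycerol opens directly. Trpc1 mostly acts as a partner in channels with other TRPC subunits. In the cortex they are known as sources of slow depolarizing currents and calcium entry after activation of metabotropic receptors.

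Properties of some libraries bear on everything that follows. The counts of Gh TRAP 2 and Gh TRAP 3 differed by little more than sampling noise, with a mean chi-square of 1.132 per gene, against 2.173 and above in the other same-group pairs. They were therefore taken as 1 summed sample, and n is 3 for Gh TRAP. The pair at 2.173 was Sh TRAP 1 and 4, and apart from these 2 pairs every TRAP pair was at 15.097 or above. Within every group the closest input pairs were replicates 1 and 4 and replicates 2 and 3. Sh TRAP 2 and Sh TRAP 3 stood apart: S100a10, which encodes p11 and marks the tagged cells, was at 19.1 and 11.9 CPM there, against 39.6 to 68.4 CPM in the other 13 TRAP samples and 5.75 to 11.01 CPM in input. Malat1, a nuclear noncoding RNA, was at 23790 and 43491 CPM in these 2 libraries, against 2864 to 7254 CPM in the other TRAP samples and 27110 to 49240 CPM in input. CPM (counts scaled by TMM to a common library size) is the unit of level throughout. Over the mean of the 4 groups, all 10 meningeal fibroblast markers, all 7 endothelial markers and 7 of 8 mural cell markers were higher in TRAP than in input, whereas all 10 interneuron markers were lower. Of 10 markers of S100a10 and layer 5 cells, 3 were higher and 7 lower in TRAP, and no marker in any of these lists was at 0. These counts are to be read against all genes, of which 69.7% passed in either direction and 37.4% were lower in TRAP. Library totals in genes ranged from 9776244 to 64788703 in TRAP and from 19265435 to 34515281 in input.

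Trpc4 and Trpc6 are shown with Trpc7 because the first 2 varied together across the TRAP libraries and Trpc7 did not vary with them. Each sequence runs from 250 bases before to 50 bases after the start of the gene's curated RefSeq transcripts, 5' to 3' on the strand of the gene in GRCm38.p6 (the build named mm10 by the authors), and capitals mark GC boxes, the letters GGGCGG on either strand. The Trpc4 window is chr3:54155807-54156106 (plus strand), that of Trpc6 is chr9:8543892-8544191 (plus strand) and that of Trpc7 is chr13:56895740-56896039 (minus strand).
Trpc4: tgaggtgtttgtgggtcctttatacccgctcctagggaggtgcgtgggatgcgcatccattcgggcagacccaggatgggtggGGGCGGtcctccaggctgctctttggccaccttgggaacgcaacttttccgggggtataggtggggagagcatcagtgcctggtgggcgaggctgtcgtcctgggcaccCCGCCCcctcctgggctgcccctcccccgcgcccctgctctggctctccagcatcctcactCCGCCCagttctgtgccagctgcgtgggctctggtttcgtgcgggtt
Trpc6: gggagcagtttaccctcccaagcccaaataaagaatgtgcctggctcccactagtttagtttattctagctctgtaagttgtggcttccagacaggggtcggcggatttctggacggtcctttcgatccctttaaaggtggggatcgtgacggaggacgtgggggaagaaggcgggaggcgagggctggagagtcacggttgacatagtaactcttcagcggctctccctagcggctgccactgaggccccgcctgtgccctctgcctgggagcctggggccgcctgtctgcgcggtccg
Trpc7: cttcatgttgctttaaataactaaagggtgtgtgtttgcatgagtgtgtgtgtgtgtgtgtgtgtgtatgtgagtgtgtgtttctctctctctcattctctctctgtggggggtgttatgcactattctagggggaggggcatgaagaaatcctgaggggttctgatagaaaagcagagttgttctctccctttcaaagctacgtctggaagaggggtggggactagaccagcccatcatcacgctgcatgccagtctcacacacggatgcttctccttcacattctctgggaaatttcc

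The GC box was found 3 times in the Trpc4 window and 3 times in that of Trpc1, and not in those of Trpc5, Trpc6 and Trpc7. Of 32851 RefSeq promoter windows of the same length, 35.66% held at least 1. The letters TGACG, a half-site of the cyclic AMP response element, were found on either strand 2 times for Trpc1 and 1 time for Trpc6, and in 20.81% of all windows. The letters TATAAA of the TATA box were found 1 time, for Trpc4, against 13.62% of windows, and the E-box CACGTG in none of the 5, against 7.15% of windows. No match overlapped a match of another motif in these 5 windows. Trpc1, Trpc4 and Trpc6 had 22, 16 and 17 CpG dinucleotides and 63.0%, 66.0% and 60.0% G and C. Trpc5 had 9 CpG and 55.7%, Trpc7 had 3 CpG and 48.0%, and the medians over all windows were 7 and 52.7%. Trpc7 was thus the only 1 of the 5 windows under both medians. The Trpc4 and Trpc6 windows, whose genes varied together, share none of the 4 motifs.

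The genes lie on 4 chromosomes of GRCm38.p6, and the spans given here include predicted transcripts, which for all but Trpc5 begin upstream of the curated starts used for the promoter windows. Trpc1 spans positions 95705072 to 95750386 of chromosome 9 on the minus strand, and Trpc6 spans 8543867 to 8680752 of the same chromosome on the plus strand. Trpc4 spans 54155584 to 54318471 of chromosome 3, Trpc5 spans 144377327 to 144688180 of chromosome X and Trpc7 spans 56773098 to 56895968 of chromosome 13. Reads are from exons, and the longest curated transcripts have 4549 bases for Trpc1, 3473 for Trpc4, 8502 for Trpc5, 3259 for Trpc6 and 3674 for Trpc7. Of the 75-base windows of Trpc6 exons, 2.804% also occur in other genes, against 0% for the other 4. Trpc1 shares 102 of its 4549 exonic bases with Gm39407 on the opposite strand, and as the kit does not mark strand, reads there cannot be assigned to either gene. Trpc5os lies on the opposite strand inside Trpc5, shares 0 exonic bases with it and had at most 128 counts in any library. Depth per library was modest for the rarer members. Counts ranged from 257 to 1506 for Trpc1, 211 to 1043 for Trpc5, 96 to 642 for Trpc4, 53 to 480 for Trpc6 and 36 to 466 for Trpc7.

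Trpc1 was the most abundant of the 5 per kilobase of transcript, and Trpc7 the least, in both fractions. In TRAP, Trpc1 averaged 4.96 ± 1.19 CPM per kb of its longest transcript (SD, n = 15), against 7.84 ± 0.554 in input (n = 16). It exceeded the next gene in 15 of 15 TRAP and 16 of 16 input samples. The order below it in TRAP was Trpc4 at 2.98, Trpc6 at 2.23, Trpc5 at 1.97 and Trpc7 at 1.27 CPM per kb. The ranges of all neighbors in this order overlapped, and Trpc6 was above Trpc5 in only 8 of 15 samples. In input, Trpc6 and Trpc4 stood level at 4.04 and 4.03 CPM per kb, with Trpc6 above in 9 of 16 samples, followed by Trpc5, with a range of 2.03 to 3.84, and Trpc7 at 1.63. Per kilobase of coding sequence Trpc5 was second in both fractions, at 5.72 in TRAP and 8.71 in input. Trpc1 was first and Trpc7 last in both fractions with each length used.

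Trpc6 held a smaller mean share of the 5 transcripts in TRAP than in input, and Trpc4 and Trpc7 larger ones. Trpc6 made up 15.8% ± 4.33 of their summed level per kb in TRAP (SD, n = 15) and 19.6% ± 2.04 in input (n = 16), whereas Trpc7 made up 9.99% ± 3.71 in TRAP and 7.96% ± 1.16 in input. Trpc4 made up 22.3% ± 2.97 in TRAP and 19.6% ± 2.27 in input. The shares in TRAP without Sh TRAP 2 and 3 were 14.5% for Trpc6, 10.8% for Trpc7 and 22.1% for Trpc4. In Sh TRAP 2 and 3 themselves, Trpc6 took 20.9% and 27.2% and Trpc7 took 5.63% and 3.61%. Trpc1 took the largest share throughout, with means of 37.3% in TRAP and 38.2% in input. These shares are a description, and no test was made of them.

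**Figure D1:**
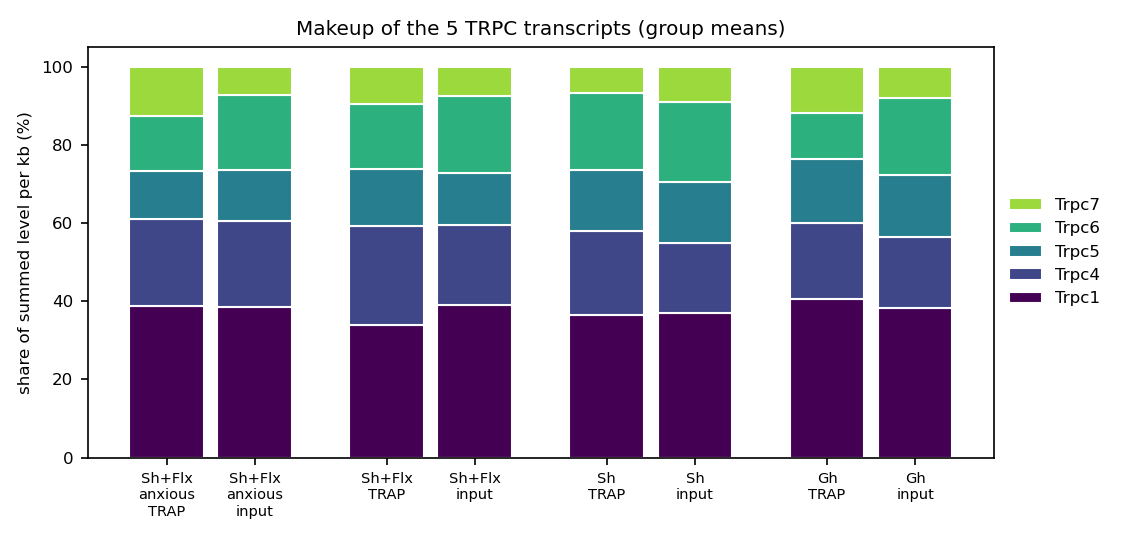
Mean share of each TRPC transcript in the summed level per kb of the 5 genes (percent, bars stacked to 100), for TRAP and input in each group. Trpc6 holds 11.7% in Gh TRAP and 19.5% in Gh input, and Trpc7 11.8% in Gh TRAP and 8.14% in Gh input.

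All 5 members were lower in TRAP than in input over the mean of the 4 groups. The log2 fold changes were -0.98 for Trpc6, -0.68 for Trpc1, -0.64 for Trpc5, -0.47 for Trpc4 and -0.36 for Trpc7. Their median was -0.64, against -0.07 over all genes tested. Of the 17015 genes, 69.7% passed the threshold in this comparison in either direction and 37.4% were lower in TRAP, which is the background for 5 of 5 members. A gene was called where edgeR's quasi-likelihood test gave an adjusted p under 0.05. Among other sources, lower levels can come from fewer cells that hold the RNA or from less RNA per cell. These cannot be told apart in bulk samples. Scaling moved this comparison as a whole: with library size alone the median of all genes was 0.12 in place of -0.07, and 39.5% of the genes called were lower in TRAP in place of 53.6% (49.5% with size factors of DESeq2). Relative to these medians the direction of all 5 members was kept.

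Trpc6, the diacylglycerol-opened channel, showed the widest gap between fractions. In Gh mice it had 4.96 CPM in TRAP 1, 5.35 in the summed TRAP 2 and 3 and 4.03 in TRAP 4, against 10.3, 13.7, 13.3 and 12.9 CPM in input. In Sh mice it had 6.74, 14.4, 20.3 and 6.39 CPM in TRAP 1 to 4, against 11.7, 15.04, 14.2 and 16.6 CPM in input. The Gh fractions did not overlap, whereas in Sh the high libraries were TRAP 2 and 3, and TRAP 3 lay above every input library. In Sh + Flx anxious mice it had 5.55, 4.50, 4.81 and 7.02 CPM in TRAP, against 11.2, 12.7, 14.2 and 13.7 CPM in input, and in Sh + Flx mice 6.09, 5.75, 4.51 and 8.57 CPM in TRAP, against 11.5, 13.1, 10.7 and 15.6 CPM in input. Neither of these pairs overlapped. The log2 fold change of TRAP over input was -1.24 in Sh + Flx anxious (SE 0.26, adjusted p = 0.000149), -1.03 in Sh + Flx (SE 0.25, adjusted p = 0.00104) and -1.39 in Gh (SE 0.29, adjusted p = 0.000209). In Sh it was -0.27 (SE 0.25, adjusted p = 0.419), and -1.08 (adjusted p = 0.000165) without Sh TRAP 2 and 3. Leaving out Sh TRAP 3 alone was enough for the call (adjusted p = 0.0204).

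**Figure D2:**
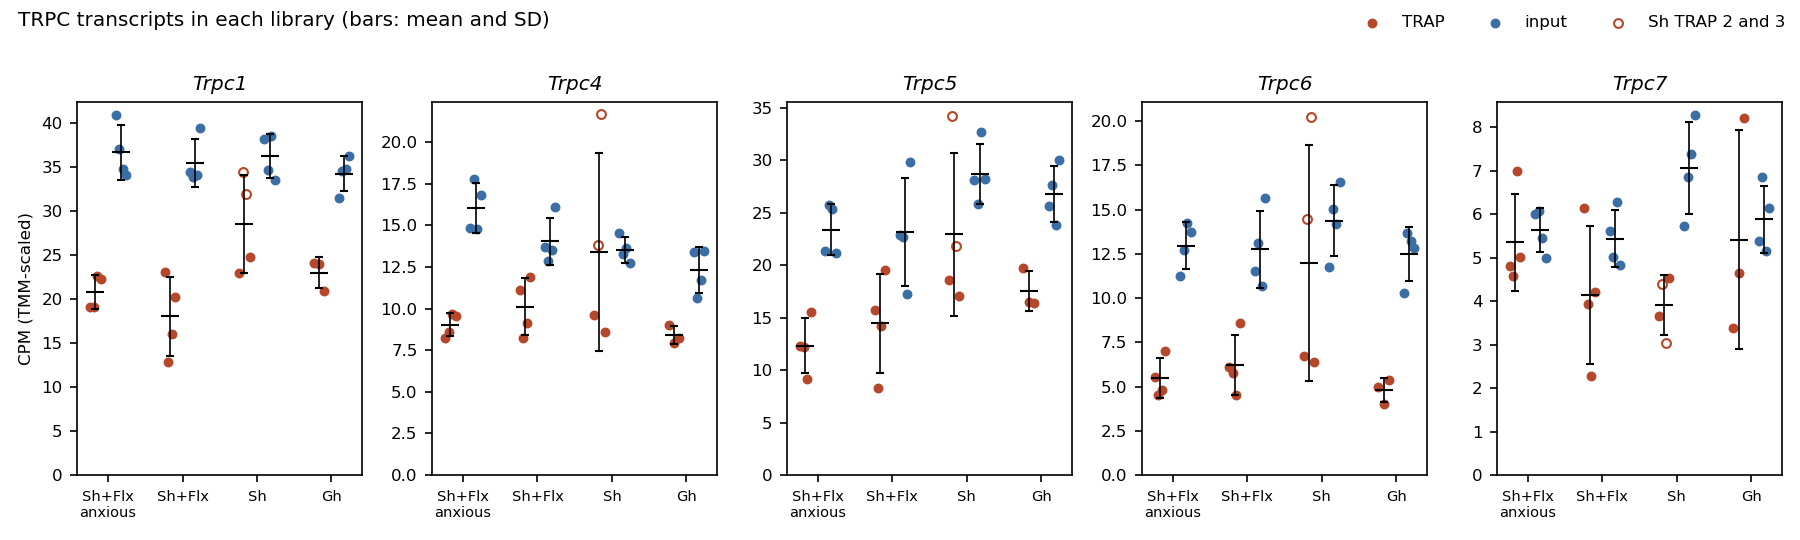
TMM-scaled CPM of each TRPC gene in every sample (points), with group means and SD (black bars), for TRAP and input in the 4 groups. Open points mark Sh TRAP 2 and 3, which hold the 2 highest values of Trpc4 and Trpc6 in TRAP (13.8 and 21.7 CPM for Trpc4, 14.4 and 20.3 CPM for Trpc6).

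Trpc1, the partner subunit, was called lower in TRAP in every group by edgeR. In Sh + Flx anxious mice it had 19.1, 19.1, 22.6 and 22.3 CPM in TRAP, against 41.0, 37.1, 34.7 and 34.0 CPM in input. In Sh + Flx mice it had 23.1, 12.8, 16.0 and 20.2 CPM in TRAP, against 34.5, 33.8, 34.1 and 39.5 CPM in input. The fractions were well separated in both. In Sh mice it had 23.01, 34.5, 31.99 and 24.7 CPM in TRAP, against 38.1, 34.7, 38.6 and 33.5 CPM in input, and in Gh mice 24.1, 20.9 and 23.95 CPM in TRAP, against 31.5, 34.5, 34.7 and 36.2 CPM in input. Sh was the only group in which the fractions overlapped, by Sh TRAP 2. The log2 fold changes were -0.82 in Sh + Flx anxious (SE 0.14, adjusted p = 1.31e-05), -0.98 in Sh + Flx (SE 0.14, adjusted p = 7.81e-07), -0.35 in Sh (SE 0.14, adjusted p = 0.0482) and -0.58 in Gh (SE 0.15, adjusted p = 0.00288). The Sh call was not made with DESeq2 (-0.31, adjusted p = 0.0666). It was lost without Sh input 1, 2 or 3 or without Sh TRAP 1 or 4 (adjusted p up to 0.183). Without Sh TRAP 2 and 3 together the value strengthened to -0.55 (adjusted p = 0.0032).

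Trpc4 and Trpc5, the closely related pair, were lower in TRAP in 3 groups each, Sh being the exception. Trpc4 had 8.26, 8.61, 9.65 and 9.56 CPM in Sh + Flx anxious TRAP, against 14.8, 17.8, 14.8 and 16.8 CPM in input. It had 11.1, 8.23, 9.12 and 11.9 CPM in Sh + Flx TRAP, against 13.7, 12.9, 13.5 and 16.1 CPM in input. All TRAP libraries lay below all input libraries in these 2 groups. In Sh, Trpc4 had 9.62, 13.8, 21.7 and 8.58 CPM in TRAP, against 14.5, 13.3, 13.6 and 12.7 CPM in input, and in Gh 8.99, 8.26 and 7.93 CPM in TRAP, against 13.4, 10.6, 11.7 and 13.5 CPM in input. Sh TRAP 3 was the highest of all Trpc4 values, and the Gh fractions did not overlap. The log2 fold changes were -0.83 in Sh + Flx anxious (adjusted p = 0.000457), -0.48 in Sh + Flx (adjusted p = 0.0339), -0.01 in Sh (adjusted p = 0.965) and -0.56 in Gh (adjusted p = 0.0302). The Sh value was -0.52 (adjusted p = 0.0106) without Sh TRAP 2 and 3. The Sh + Flx call was lost without Sh + Flx input 1 or 4 or Sh + Flx TRAP 2 or 3 (adjusted p up to 0.111) and was not made with DESeq2 (adjusted p = 0.0596), nor in edgeR with library size alone, with DESeq2 size factors or with only this group fitted. The Gh call was lost without Gh input 1 or 4, Gh TRAP 4 or the summed Gh TRAP 2 and 3 (adjusted p up to 0.095).

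Trpc5 had 12.3, 12.2, 9.17 and 15.6 CPM in Sh + Flx anxious TRAP, against 21.4, 25.7, 25.3 and 21.2 CPM in input. It had 15.8, 8.30, 14.2 and 19.6 CPM in Sh + Flx TRAP, against 22.9, 22.6, 17.3 and 29.8 CPM in input. The first pair did not overlap and the second did, by Sh + Flx TRAP 4 and input 3. In Sh it had 18.6, 34.2, 21.9 and 17.0 CPM in TRAP, against 28.1, 25.8, 32.7 and 28.2 CPM in input, and in Gh 19.8, 16.4 and 16.5 CPM in TRAP, against 25.6, 27.6, 23.8 and 30.0 CPM in input. Here Sh TRAP 2, and not Sh TRAP 3, was the highest of all samples, and the Gh fractions did not overlap. The log2 fold changes were -0.93 in Sh + Flx anxious (adjusted p = 0.000402), -0.68 in Sh + Flx (adjusted p = 0.00678), -0.33 in Sh (adjusted p = 0.209) and -0.62 in Gh (adjusted p = 0.028). The Sh value passed the threshold without Sh TRAP 2 (adjusted p = 0.0313) and, at -0.63, without Sh TRAP 2 and 3 (adjusted p = 0.0162). The Gh call was lost without Gh input 4, Gh TRAP 4 or the summed Gh TRAP 2 and 3 (adjusted p up to 0.0901).

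Trpc7, the least abundant member over all samples, was called lower in TRAP in Sh only. It had 4.80, 4.58, 7.002 and 5.03 CPM in Sh + Flx anxious TRAP, against 6.01, 6.07, 5.45 and 5.002 CPM in input. It had 6.13, 3.94, 2.27 and 4.22 CPM in Sh + Flx TRAP, against 5.62, 5.01, 6.29 and 4.83 CPM in input. These fractions overlapped. In Sh it had 3.66, 4.39, 3.04 and 4.53 CPM in TRAP, against 5.73, 6.85, 7.39 and 8.28 CPM in input, and in Gh 3.37, 8.22 and 4.65 CPM in TRAP, against 5.38, 6.85, 5.15 and 6.15 CPM in input. Sh was the only group whose fractions did not overlap, and the only one called, at -0.86 (SE 0.25, adjusted p = 0.00682). That value was -0.74 (adjusted p = 0.0435) without Sh TRAP 2 and 3. The other values were -0.07 in Sh + Flx anxious, -0.40 in Sh + Flx and -0.09 in Gh, with 95% intervals of -0.57 to 0.43, -0.91 to 0.10 and -0.64 to 0.45. The value over the mean of the 4 groups (adjusted p = 0.0138) was not called without Sh TRAP 2 and 3, at -0.26 (adjusted p = 0.0744), nor with library size alone, at -0.16 (adjusted p = 0.274). With library size alone the Sh + Flx anxious and Gh values turned to 0.11 and 0.14. The Sh + Flx value was called without Sh + Flx TRAP 1 (adjusted p = 0.0335).

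Counted by group, 4 of 5 members were lower in Sh + Flx anxious, where 50.8% of all genes were called in either direction and 26.8% were lower in TRAP. In Sh + Flx 4 of 5 were lower, against 51.9% called and 26.9% lower of all genes. In Sh 2 of 5 were lower, against 40.1% called and 18.8% lower of all genes, and 5 of 5 without Sh TRAP 2 and 3, where 25.3% of all genes were lower. In Gh 4 of 5 were lower, against 42.2% called and 21.9% lower of all genes, and Trpc6 alone remained called there with library size alone. The members whose fractions did not overlap numbered 4 in Sh + Flx anxious, 3 in Sh + Flx, 1 in Sh and 4 in Gh. No share of all genes without overlap is given, so these numbers and the overlaps in other comparisons are a description only. The 4 groups share no libraries, but they share the estimate of the spread.

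**Figure D3:**
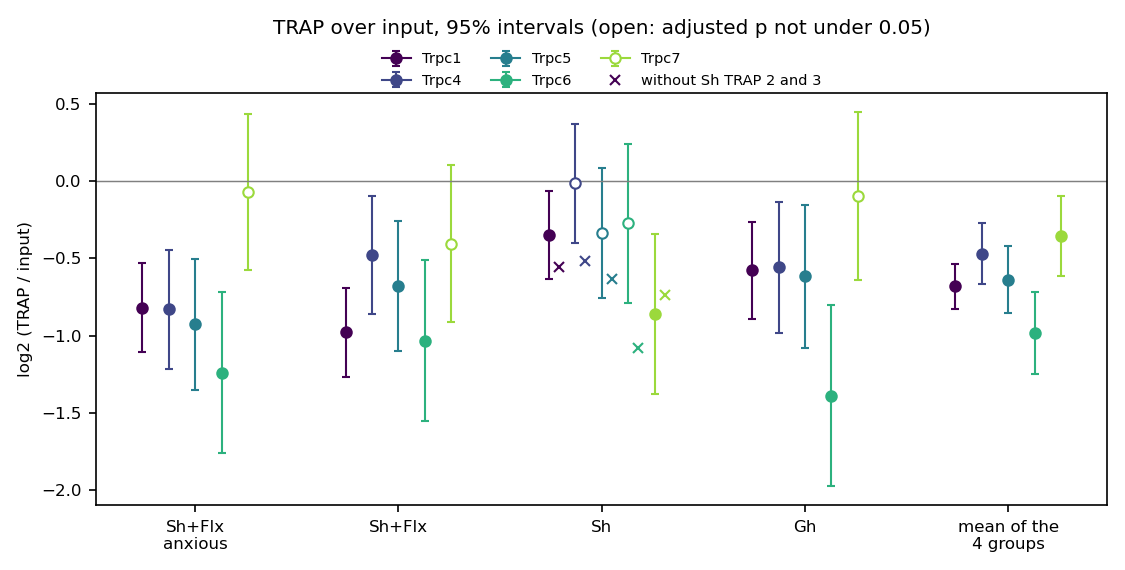
Log2 fold change of TRAP over input for each TRPC gene, by group and over the mean of the 4 groups, with 95% intervals that are not adjusted over genes (filled points, adjusted p under 0.05). Crosses give the Sh values without Sh TRAP 2 and 3, of which Trpc6 moves furthest, to -1.08 in place of -0.27.

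The other genes of the pathway were not uniformly lower in TRAP. Trpc2 had 1 count in 1 of the 32 libraries. Of 15 other TRP channels tested, 8 were higher and 7 lower, beside 69.7% of all genes called in either direction and 37.4% lower. Trpm3 and Trpm7, members of the melastatin branch, were higher, with 106 ± 15.3 CPM in TRAP and 51.1 ± 6.15 CPM in input for Trpm3, and 89.1 ± 20.7 CPM in TRAP and 61.8 ± 4.33 CPM in input for Trpm7. Trpm6, a magnesium-permeable channel, had a log2 fold change of 3.97, and Pkd2, a polycystin channel of cilia and endoplasmic reticulum, of 0.98.

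Upstream of the channels, 13 of 22 receptors coupled to Gq were lower in TRAP and 5 were higher (median log2 fold change -0.41, against -0.07 over all genes). Grm5, a metabotropic glutamate receptor, was at 103 ± 38.2 CPM in TRAP and 233 ± 22.7 CPM in input (log2 fold change -1.23, adjusted p = 4.86e-15). Cckbr, the cholecystokinin B receptor, and Htr2c, the serotonin 2C receptor, were lower by log2 values of -0.87 and -0.99. Ednra, the endothelin A receptor of vascular smooth muscle, was higher, at 30.6 ± 5.99 CPM in TRAP and 4.26 ± 1.45 CPM in input. Of 18 genes for Gq subunits and phospholipases C, 6 were higher and 6 lower: Gnaq, the alpha subunit of Gq, had a log2 fold change of -0.66, and the phospholipases Plcb3, Plcg2 and Plce1 had 2.10, 1.88 and 1.52. Of 19 genes of diacylglycerol and PIP2 turnover, 12 were lower and 3 higher. The diacylglycerol kinases Dgkb and Dgki were lower (-1.06 and -0.99), as was Mgll, which degrades 2-arachidonoylglycerol (-0.64), whereas the kinase Dgka was higher (1.83).

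Of 10 genes of store-operated calcium entry, 4 were higher and 3 lower in TRAP. Itpr2 and Itpr3, receptors for inositol trisphosphate, had log2 fold changes of 1.47 and 4.01, with Itpr3 at 4.05 CPM in TRAP and 0.277 CPM in input, and Orai2, a pore subunit, had -0.997. Of 23 genes for proteins that bind or regulate TRPC channels, 13 were lower and 6 higher. Cav1, the caveolin of endothelial caveolae, was higher (3.18), at 65.8 ± 18.5 CPM in TRAP and 7.36 ± 1.56 CPM in input. The summed endothelial markers were 82.5 to 134 CPM in TRAP and 10.5 to 17.9 CPM in input, and the summed mural cell markers 104 to 201 CPM in TRAP and 25.3 to 36.7 CPM in input. The part of these cells in the values of Ednra, Cav1 and the other genes named was not tested. Read against the 69.7% of all genes that passed in this comparison, 18 of 22, 12 of 18, 15 of 19, 7 of 10 and 19 of 23 genes of these lists passed.

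Across groups within TRAP, the effect of single housing was asked first. Trpc6 had the values given above, 6.74, 14.4, 20.3 and 6.39 CPM in Sh TRAP, against 4.96, 5.35 and 4.03 CPM in Gh TRAP. All 4 Sh libraries lay above all 3 Gh samples, and the 2 highest were Sh TRAP 2 and 3. The log2 fold change was 1.33 (SE 0.38), with an unadjusted p of 0.00246 from the fit across all genes in edgeR and an adjusted p of 0.206. Trpc6 is among the genes that the study selected on these same libraries, so its direction is no independent evidence. Trpc4 had a log2 fold change of 0.68 (unadjusted p = 0.0263, adjusted p = 0.27 by edgeR) with overlapping libraries. Trpc1, Trpc5 and Trpc7 had 0.31, 0.39 and -0.49 (adjusted p = 0.472, 0.509 and 0.5). In this comparison edgeR called none of the 5 members and 0% of the 16754 genes tested, with 2 members and 2634 genes at an unadjusted p under 0.05. DESeq2 called 1 member, Trpc6, and 209 genes. Without Sh TRAP 2 and 3, Trpc6 had a log2 fold change of 0.44 (SE 0.31, adjusted p = 0.554), and Trpc1, Trpc4 and Trpc5 lay between 0.01 and 0.10.

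Fluoxetine was compared with single housing alone. Trpc1 was the only member called in Sh + Flx against Sh, with 23.1, 12.8, 16.0 and 20.2 CPM in Sh + Flx TRAP, against 23.01, 34.5, 31.99 and 24.7 CPM in Sh TRAP. The groups met at 23 CPM, and the 2 highest libraries were again Sh TRAP 2 and 3. The log2 fold change was -0.67 (SE 0.20, adjusted p = 0.0497 by edgeR), beside 6.46% of all genes called in either direction. The call was lost without Sh TRAP 2, Sh TRAP 3 or any 1 of the 4 Sh + Flx TRAP libraries (adjusted p up to 0.139) and with replicates 1 and 4 against 2 and 3 as a term, and the value was -0.40 (adjusted p = 0.296) without Sh TRAP 2 and 3. Trpc6 had -0.95 (adjusted p = 0.0849), which passed the threshold without Sh TRAP 1 or Sh TRAP 4 (adjusted p as low as 0.0269) and became -0.07 without Sh TRAP 2 and 3. Trpc5, Trpc4 and Trpc7 had -0.67, -0.42 and 0.08, and the Trpc4 value turned to 0.15 without Sh TRAP 2 and 3.

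In Sh + Flx anxious against Sh, Trpc5 and Trpc6 were called lower, beside 10.5% of all genes called in either direction. Trpc5 had 12.3, 12.2, 9.17 and 15.6 CPM in Sh + Flx anxious TRAP, against 18.6, 34.2, 21.9 and 17.0 CPM in Sh TRAP, with no overlap (log2 fold change -0.90, SE 0.26, adjusted p = 0.0381 by edgeR). Trpc6 had 5.55, 4.50, 4.81 and 7.02 CPM in Sh + Flx anxious TRAP, against 6.74, 14.4, 20.3 and 6.39 CPM in Sh TRAP, with overlap (log2 fold change -1.13, SE 0.34, adjusted p = 0.0405 by edgeR). Sh TRAP 2 and 3 were the highest libraries for both genes. Trpc1 and Trpc7 also did not overlap, with all anxious libraries below Sh for Trpc1 (-0.46, adjusted p = 0.135) and above it for Trpc7 (0.46, adjusted p = 0.379). Trpc4 had -0.58 (adjusted p = 0.148). Without Sh TRAP 2 and 3 no member was called, beside 4.53% of all genes: Trpc5 had -0.53 (adjusted p = 0.241) and Trpc6 -0.25 (adjusted p = 0.654). The Trpc5 call was also lost without Sh TRAP 2, Sh TRAP 3 or Sh + Flx anxious TRAP 1, 2 or 3 (adjusted p up to 0.13), and the Trpc6 call without Sh TRAP 2, Sh TRAP 3 or any 1 Sh + Flx anxious TRAP library (adjusted p up to 0.161) or with replicates 1 and 4 against 2 and 3 as a term.

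The remaining TRAP comparisons held no call among the members. In Sh + Flx against Gh the 5 log2 fold changes ran from -0.41 to 0.38, and 0.00597% of all genes were called. For Sh + Flx anxious against Gh they ran from -0.51 to 0.19, and 0.0716% were called. The anxious libraries of Trpc5 all lay below those of Gh in that comparison. For Sh + Flx anxious against Sh + Flx they ran from -0.23 to 0.38, all with overlapping libraries, and 0% of genes were called. In each of these 3 comparisons 0 members had an unadjusted p under 0.05 in edgeR and DESeq2 called 0. The comparisons with Sh share the Sh libraries, and those with Gh share the Gh libraries.

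**Figure D4:**
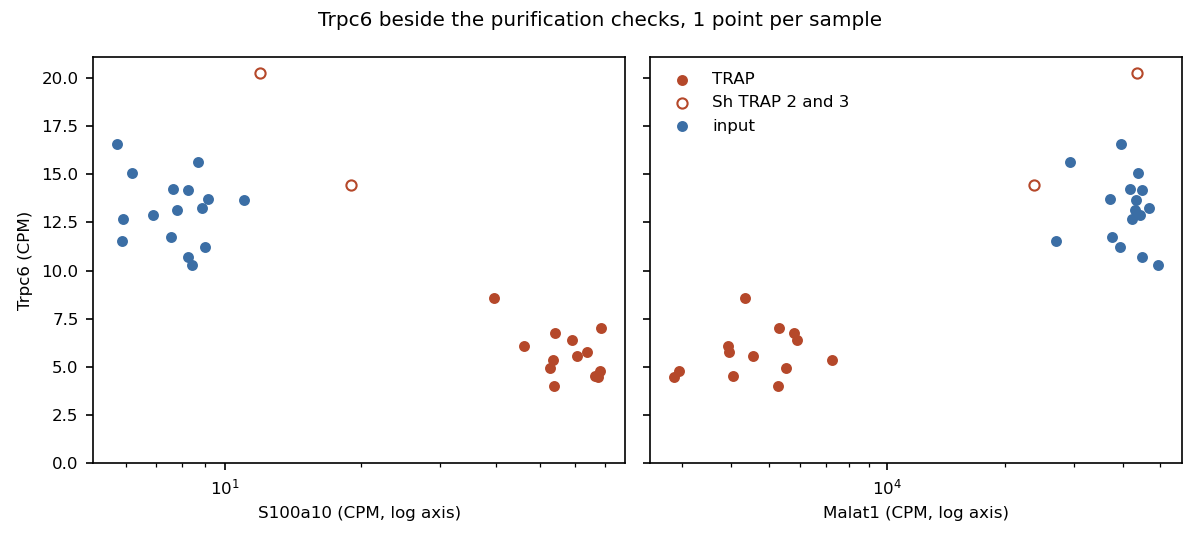
Trpc6 (CPM) against S100a10 (left) and Malat1 (right; both horizontal axes are logarithmic, CPM), 1 point per sample, for TRAP (red; open, Sh TRAP 2 and 3) and input (blue). Sh TRAP 2 and 3, at 14.4 and 20.3 CPM of Trpc6, lie nearest to the input samples among TRAP samples in S100a10 and Malat1. In Malat1, Sh TRAP 3 lies within the input range and Sh TRAP 2 below it.

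Several measures moved with the high Trpc1, Trpc4, Trpc5 and Trpc6 values of Sh TRAP 2 and 3. The summed level of 8 RNAs kept in the nucleus was 31810 and 53820 CPM there, against 3948 to 10170 CPM in the other TRAP samples and 38680 to 63650 CPM in input. The summed interneuron markers were 1241 and 1426 CPM, against 659.5 to 1011 CPM in the other TRAP samples and 1450 to 1824 CPM in input. The summed meningeal fibroblast markers went the other way, at 3167 and 2497 CPM, against 5028 to 11130 CPM in the other TRAP samples and 126.8 to 252.9 CPM in input. Their part in the TRPC values was not tested. With these 2 libraries left out, Sh TRAP consisted of replicates 1 and 4 alone, which differed by little and were counted as 2 samples. Without these 2 libraries no member was called between groups in TRAP, beside 0% to 4.53% of all genes by comparison. All 5 members were then called lower in TRAP than in input in Sh. In that comparison 51.5% of all genes were called in either direction and 25.3% were lower.

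In the pathway lists, the genes called in Sh + Flx anxious against Sh in TRAP, to be read against 10.5% of all genes, numbered 4 of 22 for receptors coupled to Gq, 2 of 18 for Gq subunits and phospholipases C, 2 of 19 for diacylglycerol and PIP2 turnover, 2 of 10 for store-operated entry, 9 of 23 for TRPC-binding and regulatory proteins and 3 of 14 for other TRP channels. In that comparison 2 of 22 receptors coupled to Gq were lower and 2 higher, and Grm5 was at 83.3 ± 6.10 CPM in Sh + Flx anxious and 145 ± 56.4 CPM in Sh (SD, n = 4 each). None of the 4 was called without Sh TRAP 2 and 3, where 4.53% of all genes were called. Plcb4, a phospholipase C of the beta type, was lower in both fluoxetine groups than in Sh, with log2 fold changes of -0.83 in Sh + Flx anxious (adjusted p = 0.0178) and -0.71 in Sh + Flx (adjusted p = 0.0448). Of the Gq subunits and phospholipases C, 2 were called lower in each of these comparisons. Without Sh TRAP 2 and 3 the number was 1 in Sh + Flx anxious and 0 in Sh + Flx, beside 4.53% and 2.08% of all genes. The lowest number over all settings was 0 in both. Trpm7 was also lower than in Sh, at -0.62 in Sh + Flx anxious and -0.59 in Sh + Flx. Itpr1, the main receptor for inositol trisphosphate of neurons, was at 350.0 ± 19.4 CPM in Sh + Flx anxious and 677 ± 281 CPM in Sh (adjusted p = 0.0132). Of the proteins that bind or regulate TRPC channels, 6 of 23 were higher in Sh + Flx anxious than in Sh, among them Calm2 (log2 fold change 0.69) and Stmn2 (0.63), and 3 were lower, among them Prkg1 (-0.68), the cyclic GMP-dependent kinase, and Homer2 (-0.79), a postsynaptic scaffold. These counts were 4 higher and 4 lower without Sh TRAP 2 and 3. They were 0 and 0 when only the 2 groups compared were fitted, where only 0.484% of all genes were called. The count of higher genes was 2 without Sh TRAP 2 or any 1 Sh + Flx anxious TRAP library. In Sh against Gh none of the list genes was called.

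In whole cortex Trpc4 was the only member called between groups. It had 14.8, 17.8, 14.8 and 16.8 CPM in Sh + Flx anxious input, against 13.4, 10.6, 11.7 and 13.5 CPM in Gh input. All anxious libraries lay above all Gh libraries. The log2 fold change was 0.38 (SE 0.11, 95% interval 0.15 to 0.61, adjusted p = 0.0248 by edgeR), which made 1 of 5 members called, beside 11.5% of all genes called in either direction. The call was lost without Gh input 2, Gh input 3, Sh + Flx anxious input 2 or Sh + Flx anxious input 4 (adjusted p up to 0.098), and when only these 2 groups were fitted. Trpc5, Trpc7, Trpc6 and Trpc1 had -0.20, -0.07, 0.05 and 0.10 in this comparison, all with overlapping libraries. The Trpc6 and Trpc7 values were small enough to turn direction when single input libraries were left out. In the same comparison 5 of 21 tested receptors coupled to Gq were higher and 0 lower, among them Adra1b (0.58), Oxtr (0.43) and Htr2a (0.41). Of the Gq subunits and phospholipases C, 0 were higher and 3 lower, and of the TRPC-binding and regulatory proteins 0 were higher and 4 lower. Diacylglycerol and PIP2 turnover had 5 higher and 2 lower genes, and store-operated entry 1 and 1. These counts are to be read against the 11.5% of all genes called. Of 8 oligodendrocyte markers, 7 were lower (median -0.56). The summed interneuron markers were 1721 to 1772 CPM in Sh + Flx anxious input and 1450 to 1556 CPM in Gh input, and the summed upper layer markers 794 to 858 CPM in Sh + Flx anxious and 724 to 734 CPM in Gh. The summed meningeal fibroblast markers were 127 to 170 CPM in Sh + Flx anxious and 216 to 253 CPM in Gh, and those of the choroid plexus 21.9 to 88.2 CPM in Sh + Flx anxious and 102 to 199 CPM in Gh. The summed oligodendrocyte markers were 1042 to 1346 CPM in Sh + Flx anxious and 1698 to 1921 CPM in Gh. The summed markers of S100a10 and layer 5 cells were 1251 to 1293 CPM in Sh + Flx anxious and 1354 to 1437 CPM in Gh. Those of septal neurons were 28.7 to 32.9 CPM in Sh + Flx anxious and 34.8 to 36.9 CPM in Gh. None of these pairs of ranges overlapped, but in this comparison the ranges of all other marker lists did. Summed astrocyte markers, for example, were 335.9 to 435.6 CPM in Sh + Flx anxious input and 331.7 to 394.6 CPM in Gh input. Ranges also overlapped for microglia, endothelial cells, mural cells, striatal neurons and hippocampal neurons. The part of any of these cells in the Trpc4 value was not tested.

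The other input comparisons held no call among the members. Trpc4 also lay higher in every anxious library than in every Sh input library (14.8 CPM or more, against 14.5 CPM or less), and Trpc5 lower. In Sh + Flx anxious against Sh the 5 log2 fold changes ran from -0.33 to 0.24. At an unadjusted p under 0.05 in edgeR were 3 members and 2834 of the 15690 genes, and 6.86% of all genes were called. In Sh + Flx against Sh the log2 fold changes ran from -0.38 to 0.04. There 2 members and 1986 genes had an unadjusted p under 0.05 in edgeR, and 2.62% of all genes were called. Only Trpc5 was called there without Sh + Flx input 4 (adjusted p = 0.0333). In Sh against Gh the log2 fold changes ran from 0.09 to 0.26, with 0.0829% of all genes called. In Sh + Flx against Gh they ran from -0.21 to 0.19, with 5.31% called, and in Sh + Flx anxious against Sh + Flx from 0.01 to 0.19, with 0.127% called. In the last 3 comparisons 0 members had an unadjusted p under 0.05 by edgeR, and DESeq2 called 0 in all 5 of these input comparisons, giving no adjusted p for Trpc4, Trpc6 and Trpc7 in Sh against Gh.

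Whether a change in TRAP differed from that in input was tested in the fit of both fractions, and no member passed. For Sh + Flx anxious against Sh the difference was -0.82 for Trpc4 (SE 0.27, adjusted p = 0.0561), -0.97 for Trpc6 (SE 0.36, adjusted p = 0.089) and 0.79 for Trpc7 (SE 0.35, adjusted p = 0.161), all by edgeR. At an unadjusted p under 0.05 in edgeR were 4 members and 4165 of the 17015 genes, and 7.31% of all genes were called. DESeq2 called 1 member there, beside 10.9% of all genes by DESeq2. Trpc4 and Trpc6 passed the threshold without Sh TRAP 1 or Sh TRAP 4 (adjusted p as low as 0.00886 for Trpc4 and 0.0171 for Trpc6). Without Sh TRAP 2 and 3 the Trpc4 and Trpc6 values were -0.21 and -0.07, whereas that of Trpc7 was 0.77 (adjusted p = 0.27). For Sh + Flx against Sh, Trpc1 had -0.63 (SE 0.20, adjusted p = 0.0673 by edgeR). At an unadjusted p under 0.05 in edgeR were 2 members and 3756 of the 17015 genes. DESeq2 called 1 member, beside 6.41% of all genes by DESeq2, and edgeR called 2.97% of all genes. Trpc1 passed the threshold without Sh TRAP 1, Sh TRAP 4 or Sh + Flx TRAP 1 (adjusted p as low as 0.0177), and was -0.34 without Sh TRAP 2 and 3.

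For Sh against Gh, Trpc6 had 1.12 (SE 0.38, adjusted p = 0.239) and Trpc7 -0.77 (SE 0.37, adjusted p = 0.377), both by edgeR. At an unadjusted p under 0.05 in edgeR were 2 members and 2190 of the 17015 genes. DESeq2 called 0 members, and edgeR called 0.0235% of all genes. Without Sh TRAP 2 and 3 the Trpc6 and Trpc7 values were 0.24 and -0.73, so that Trpc7 kept its size and Trpc6 did not. In the other 3 comparisons of changes 0 members had an unadjusted p under 0.05 and DESeq2 called 0. All genes called amounted to 0.0529% for Sh + Flx against Gh, 0.0294% for Sh + Flx anxious against Gh and 0.00588% for Sh + Flx anxious against Sh + Flx.

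Trpc4 and Trpc6 varied most alike of the 5 across the TRAP samples, with a Pearson r of log2(CPM + 1) of 0.65 over the 13 samples without Sh TRAP 2 and 3 and 0.92 with them (n = 15). Trpc1 and Trpc5 followed, at 0.63 without them and 0.79 with them. Trpc7 lay between -0.17 and 0.35 with the other 4 over the 13 samples. In input, where the same pairs had -0.04 for Trpc4 with Trpc6 and 0.29 for Trpc1 with Trpc5 over 16 libraries, the pairing of Trpc4 with Trpc6 was not seen. The samples of a fraction share their groups and the scaling, so these values are a description only. With S100a10, Trpc6 had -0.93 over 15 TRAP samples and -0.49 over 13, and with Malat1 0.89 over 15 and 0.26 over 13, so that the relation of Trpc6 with Malat1 rests on Sh TRAP 2 and 3. Trpc5 had -0.71 with S100a10 over 15 samples and -0.64 over 13, and 0.72 and 0.66 with Malat1.

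Over all 14154 genes with a mean of at least 1 CPM, the pattern closest to Trpc6 in the 15 TRAP samples was that of Serac1 (r = 0.97, and 0.87 without Sh TRAP 2 and 3). Dmd, which encodes dystrophin, came next (0.97 and 0.86), and then Slc8a1, a sodium-calcium exchanger (0.95 and 0.77). Closest to Trpc4 were Kcna4, a voltage-gated potassium channel (0.98 and 0.86), and Dmd (0.97 and 0.80). Dmd thus stood among the 3 nearest genes of both Trpc4 and Trpc6. Closest to Trpc1 were Tbc1d30 (0.93 and 0.85), Camk2a, a calcium-calmodulin kinase (0.89 and 0.84), and Slc15a2, a peptide transporter (0.89 and 0.78). Closest to Trpc5 were Arpp21 (0.88 and 0.88), Trerf1 (0.87 and 0.78) and Ppp1r9b, the spine protein spinophilin (0.86 and 0.71). Trpc7 had no neighbor as close: Alkbh2, a DNA repair enzyme, came first (0.80 and 0.78), then Pars2, a mitochondrial prolyl-tRNA synthetase (0.79 and 0.82), and Otx1, a transcription factor of deep cortical layers (0.76 and 0.83). Each list was ordered with all 15 samples, and without Sh TRAP 2 and 3 the first place went to other genes for all 5 members.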

How the data were processed

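RNA was amplified with the Ovation RNA-Seq System V2, which does not mark strand, and sequenced as paired 75-base reads. Per the submitters' processing notes, reads were aligned with TopHat2 2.0.11 to mm10. Raw counts per gene were deposited by the authors for 32 libraries, with a program not given in the sources that were used here. A further 6 deposited tables hold the authors' mean FPKM and their own comparisons, and were not used. The lines that name no gene were left out: reads outside features (25.229% to 58.641% of each TRAP library, 45.142% to 55.16% of each input library) and ambiguous reads (0.331% to 0.724% of TRAP, 0.411% to 0.52% of input). The median total was 26535218 counts in TRAP and 26411126 in input. The members' counts limit the precision of each single value, beside the spread between pools.

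After filterByExpr and TMM scaling, counts were tested with edgeR 4.0.16 (glmQLFit, glmQLFTest, Benjamini-Hochberg over all genes kept) in R 4.3.3. The TRAP fit held 15 samples and 16754 genes, the input fit 16 and 15690, and the joint fit 31 and 17015, with median biological coefficients of variation of 0.266, 0.119 and 0.211. CPM are TMM-scaled from the joint fit. P-values measure the spread between these libraries and assume that each is a pool of its own. The procedure was also run on simulated counts in which all genes of a fit had the same spread. They held no libraries like Sh TRAP 2 and 3 and no pairs as close as Sh TRAP 1 and 4. The simulation therefore does not bear on results that depend on these libraries. DESeq2 1.42.0, other scalings and filters, each library left out in turn and a replicate block were alternatives, as was a term for replicates 1 and 4 against 2 and 3, chosen after seeing the data because the input libraries paired in this way, for which the labels give no reason. Plots used matplotlib 3.10.9.

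The 5 members were named in every comparison, with up to 4 called genes of smallest p per pathway list and the 3 genes most correlated with each member, passing over predicted gene models; a few genes that these rules name are not reported here. Members and lists were chosen with earlier results of these data known. Promoter windows and gene positions are from RefSeq GRCm38.p6, in which all 5 symbols matched.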

Additional observations from a re-analysis of the deposited data

Results flagged for a closer look

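Of 35 groups of 4 libraries tested over the 5 genes for a library far from the others, 1 held such a value, and chance flags about 1 in 20. Trpc1 was at 39.5 CPM in Sh + Flx input 4, whereas the nearest of the other Sh + Flx input libraries was at 34.5 CPM and the lowest at 33.8 CPM.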

How the results depend on the processing

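Of 115 log2 fold changes of the 5 genes, 27 turned direction under at least 1 alternative, of which 0 were among the 23 called, and the largest that turned was 0.76 in size. The number of members called for Sh + Flx against Sh in TRAP was 2 with DESeq2, beside 14.6% of all genes. It was 0 with library size alone, without a filter and without Sh TRAP 2 and 3 (2.08% of all genes in the last). It was also 0 when only the groups compared were fitted, where 0% of all genes were called. For Sh + Flx anxious against Sh in TRAP it was 0 when only the groups compared were fitted (0.484% of all genes). Without Sh TRAP 2 and 3 it was 0 there too (4.53% of all genes). For Sh against Gh in TRAP it was 1 with DESeq2 (1.27% of all genes). In input it was 0 for Sh + Flx anxious against Gh when only these groups were fitted (9.11% of all genes). For TRAP over input it was 3 in Sh + Flx with DESeq2, DESeq2 size factors in edgeR, library size alone or only this group, 1 in Gh with library size alone, and in Sh 1 with DESeq2 size factors in edgeR, library size alone, no filter, only this group or DESeq2, and 5 without Sh TRAP 2 and 3. For the change in TRAP less that in input it was 1 with DESeq2 for Sh + Flx against Sh, and for Sh + Flx anxious against Sh 1 with DESeq2, with Gh TRAP 2 and 3 kept separate or with a filter of over 1 CPM in at least 4 libraries.

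Without Sh TRAP 2 and 3, Trpc4 became 0.15 for Sh + Flx against Sh in TRAP, Trpc7 became 0.032 for TRAP over input in Sh + Flx anxious, and the differences of changes became -0.052, -0.036 and -0.093 for Trpc1, Trpc4 and Trpc5 (Sh against Gh) and 0.13, 0.046 and 0.13 for Trpc4, Trpc5 and Trpc6 (Sh + Flx against Sh). For TRAP over input, Trpc7 became 0.14 in Gh with library size alone and 0.066 with Gh TRAP 2 and 3 separate, and in Sh + Flx anxious 0.11 with library size alone and 0.023 with only this group. Trpc4 in Sh became 0.021 with DESeq2 size factors in edgeR, 0.020 with DESeq2, 0.10 with library size alone and 0.032 with only this group. The causes were not tested.

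With each library left out in turn, the members called ranged from 0 to 2 for Sh + Flx against Sh and for Sh + Flx anxious against Sh in TRAP, 0 to 1 in input for Sh + Flx anxious against Gh and Sh + Flx against Sh, 2 to 4 for TRAP over input in Gh and 1 to 3 in Sh, and 0 to 1 and 0 to 2 for the differences of changes of Sh + Flx and Sh + Flx anxious against Sh. Over the same fits Trpc7 ranged from -0.18 to 0.29 (Sh + Flx against Sh, TRAP), -0.13 to 0.014 (Sh + Flx anxious against Gh, input) and -0.53 to 0.13 (TRAP over input, Gh), Trpc6 from -0.032 to 0.12 (Sh + Flx anxious against Gh, input) and Trpc4 from -0.36 to 0.15 (TRAP over input, Sh).

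The replicate numbers did not pair the samples: deviations of same-numbered TRAP and input libraries correlated from -0.036 to 0.191, and 5 of 16 pairs were over 0.1. With a replicate block, 0 members were called for Sh + Flx against Sh and 1 for Sh + Flx anxious against Sh in TRAP, and the other counts of members were as without it. Replicates 1 and 4, and 2 and 3, were the closest input pairs in all 4 groups, and a term for these sets, chosen after seeing the data, gave 0 members for Sh + Flx against Sh and 1 for Sh + Flx anxious against Sh in TRAP. For TRAP over input it gave 1 in Sh, 3 in Gh and 4 over the mean of the groups, where Trpc7 was not called.

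Over the alternatives the genes called in TRAP ranged from 0 to 209 for Sh against Gh, 0 to 2400 for Sh + Flx against Sh and 75 to 2787 for Sh + Flx anxious against Sh. Trpc1 stayed highest and Trpc7 lowest per kb with coding length and with the length of all exons, the last chosen after seeing the data. Counts as low as 36 limit the precision for Trpc7.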
